A study of Mus musculus with 2 samples.

Results

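Cadherins and protocadherins were followed across the cell types of the mouse stria vascularis, the secretory epithelium of the cochlear lateral wall. The set was every annotated gene whose symbol is Cdh or Pcdh followed by a number, or by the letter code and number of the clustered protocadherins. Of 94 such genes, 27 had at least 20 UMIs in at least 1 of the deposited matrices, out of 15625 features with that many UMIs and 48816 features in all. A UMI (unique molecular identifier) marks 1 captured RNA molecule.

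Cadherins are single-pass membrane proteins whose extracellular repeats bind calcium and, in most members, the same protein on the neighbouring cell. Type I members such as E-cadherin and N-cadherin hold epithelial and neural cells together through catenins at adherens junctions, and type II members sort cells of different kinds from each other. Protocadherins adhere more weakly and signal through other partners, and in the inner ear Cdh23 and Pcdh15 form the tip link that opens the transduction channel of hair cells. In the stria vascularis, marginal cells face the endolymph, intermediate cells are melanocyte-like cells in the middle layer, and basal cells seal the tissue from the spiral ligament, beside root cells, spindle cells and the epithelium of Reissner's membrane.

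The nuclei came from CBA/J mice at postnatal day 30, with no genetic change and no treatment of the animals. Each of 2 libraries was made from the pooled stria of several mice. In MethFix, nuclei were fixed in methanol after isolation, and the labels give 5 to 6 mice. In RNAlater, the tissue was kept in the preservative RNAlater before isolation, and the labels give 10 mice, while the study's methods give a smaller number for that library. Beside the cells of the stria, small numbers of nuclei carried markers of hair cells, supporting cells, neurons and Schwann cells.

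The MethFix matrix held 21027671 UMIs in 4748 barcodes and the RNAlater matrix 17681824 in 3868. Of the barcodes, 3323 occurred in both matrices, 70.0% of those in MethFix and 85.9% of those in RNAlater. After filtering, 3389 and 2309 nuclei were kept, of which 2259 barcodes were kept in both, and all 2162 of these that had a cell type in both matrices had the same one. The libraries were therefore counted as 1 sample. Values are given for both side by side, no test between cell types or libraries was made, and agreement between the libraries is no replication. Levels are UMIs scaled to 1000000 UMIs of the nuclei of a class (CPM), with exact 95% Poisson intervals, and ratios carry conditional exact intervals. All intervals cover counting error only. Over the 42 pairs of a member and a class with at least 20 UMIs in both libraries, the median log2 ratio of RNAlater to MethFix was 0.06, and 38 pairs lay within 0.5 of 0.

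Clusters were named from marker genes that include none of the 27 members, and the members were held out of the genes used for clustering. In MethFix there were 842 marginal, 854 intermediate, 750 basal, 71 root, 101 spindle and 155 Reissner nuclei, and 72 nuclei of a class led by Col1a1, Col1a2, Ibsp and Runx2, which is called Runx2-rich here. In RNAlater these numbers were 631, 524, 612, 69, 57, 154 and 52. Every marker of each class was detected in both libraries, except Itga8 for Reissner in RNAlater. The Runx2-rich class was the shallowest, with a median of 1774.5 UMIs per nucleus in MethFix against 4917 in marginal nuclei. Beside its own 6 markers, summing to 6014 CPM in MethFix and 6556 CPM in RNAlater, it carried 2464 and 2931 CPM of 5 fibrocyte markers, 1124 and 1285 CPM of 6 endothelial markers, 1046 and 1035 CPM of 4 Reissner markers and 588 and 715 CPM of 5 neuron markers. Their part in the levels of this class was not tested.

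Before the levels, the DNA in front of a RefSeq start of 3 members that lie in 1 stretch of chromosome 15 is shown. Cdh6, Cdh9, Cdh10, Cdh12 and Cdh18, all type II cadherins, follow each other there with no other protein-coding gene in between, and with gaps of 3555, 1962, 1435 and 959 kb. RefSeq promoter windows on GRCm38.p6 were matched for 17 of the 27 members, and the longest run that any of the 136 pairs of windows shared fell in this group. The 250 bases before each RefSeq start are printed 5′ to 3′ on the strand of the gene, in lower case, with the shared run in capitals. The Cdh9 sequence runs past the GENCODE start of that gene at 16728756, so part of it lies inside the gene as GENCODE draws it. The Cdh18 sequence (chr15:23036213-23036462, + strand) precedes a start 487 kb inside the gene as GENCODE draws it, and its 13 capitals AGCCAATCAGAGA also occur in the Cdh9 sequence, with a CCAAT box in the run. The Cdh6 (chr15:13173676-13173925, - strand) and Cdh9 (chr15:16728665-16728914, + strand) sequences share the 15 capitals ATTCACTTGCAAATC.
Cdh18: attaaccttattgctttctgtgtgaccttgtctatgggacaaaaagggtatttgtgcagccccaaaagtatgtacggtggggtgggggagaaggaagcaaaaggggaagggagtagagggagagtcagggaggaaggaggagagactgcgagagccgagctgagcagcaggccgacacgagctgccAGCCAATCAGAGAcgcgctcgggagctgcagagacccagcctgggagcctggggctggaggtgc
Cdh6: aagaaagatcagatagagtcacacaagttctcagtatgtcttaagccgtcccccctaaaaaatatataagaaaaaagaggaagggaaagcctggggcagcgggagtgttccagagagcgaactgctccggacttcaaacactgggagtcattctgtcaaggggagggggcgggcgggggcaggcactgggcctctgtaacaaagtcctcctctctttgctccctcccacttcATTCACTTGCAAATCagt
Cdh9: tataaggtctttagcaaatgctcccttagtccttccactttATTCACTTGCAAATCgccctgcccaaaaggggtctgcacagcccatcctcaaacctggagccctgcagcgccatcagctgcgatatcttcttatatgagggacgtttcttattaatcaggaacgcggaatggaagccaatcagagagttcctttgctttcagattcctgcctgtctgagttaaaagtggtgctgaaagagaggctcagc

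The 15-base run occurred in 2 of all 32817 windows, those of Cdh6 and Cdh9, and the 13-base run in 16. A shared run is a description of these letters and shows no site of a factor. Of 4 short motifs searched on both strands of the 300-base windows, CACGTG was in 0 of the 17 members' windows against 7.15% of all windows, CATGTG in 2 against 14.2%, CAGGTG in 3 against 20.2% and the Runx core TGTGGT in 3 against 16.8%. The windows with TGTGGT were those of Pcdh15, Cdh10 and Cdh20. Among the 7 classes, Pcdh15 was highest in Runx2-rich nuclei, and so was Cdh6, whose window lacked the motif. Whether the motif goes with the level was not tested. Cdh11, Cdh19 and Cdh1 were not matched. The 3 genes shown differed widely in level, since among the 7 classes Cdh18 led in marginal nuclei, Cdh6 in Runx2-rich nuclei and Cdh9 had at most 7 UMIs in any of the 7 classes.

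A gene was called restricted to 1 class when the same class was highest in both libraries, with at least 10 UMIs there in each and a level at least 4 times that of each of the other 6 classes, any class with fewer than 3 UMIs being set to a floor of 3 UMIs. By this rule 4 of the 27 members (14.8%) were restricted, Cdh18 to marginal cells, Cdh19 to intermediate cells, and Cdh11 and Cdh6 to the Runx2-rich class. Over all features with at least 20 UMIs, 508 of 15625 (3.25%) were restricted. By class, 0.493% of the features were restricted to marginal, 0.506% to intermediate, 0.429% to basal, 0.211% to root, 0.134% to spindle, 0.294% to Reissner and 1.18% to Runx2-rich nuclei. Cadherin genes are long, and length moved with this share. The median span of the members was 157.7 kb against 25.3 kb over all features, and 19 members spanned over 100 kb. Among the 2533 features over 100 kb, 247 (9.75%) were restricted, against 3 of the 19 members of that length (15.8%). The part that length plays was not tested further. For 16 members the highest class had at least 10 UMIs in each library, as it did for 8554 features. Over these 16 members the median log2 ratio of the highest to the next class was 0.80, against 0.29 over the features. The floor of 3 UMIs enters this ratio, which was below 0 for Cdh20 and Cdh24. Of the 16 members, 15 had the same highest class in both libraries, with Cdh2 as the exception, against 6941 of 8554 features.

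**Figure D1:**
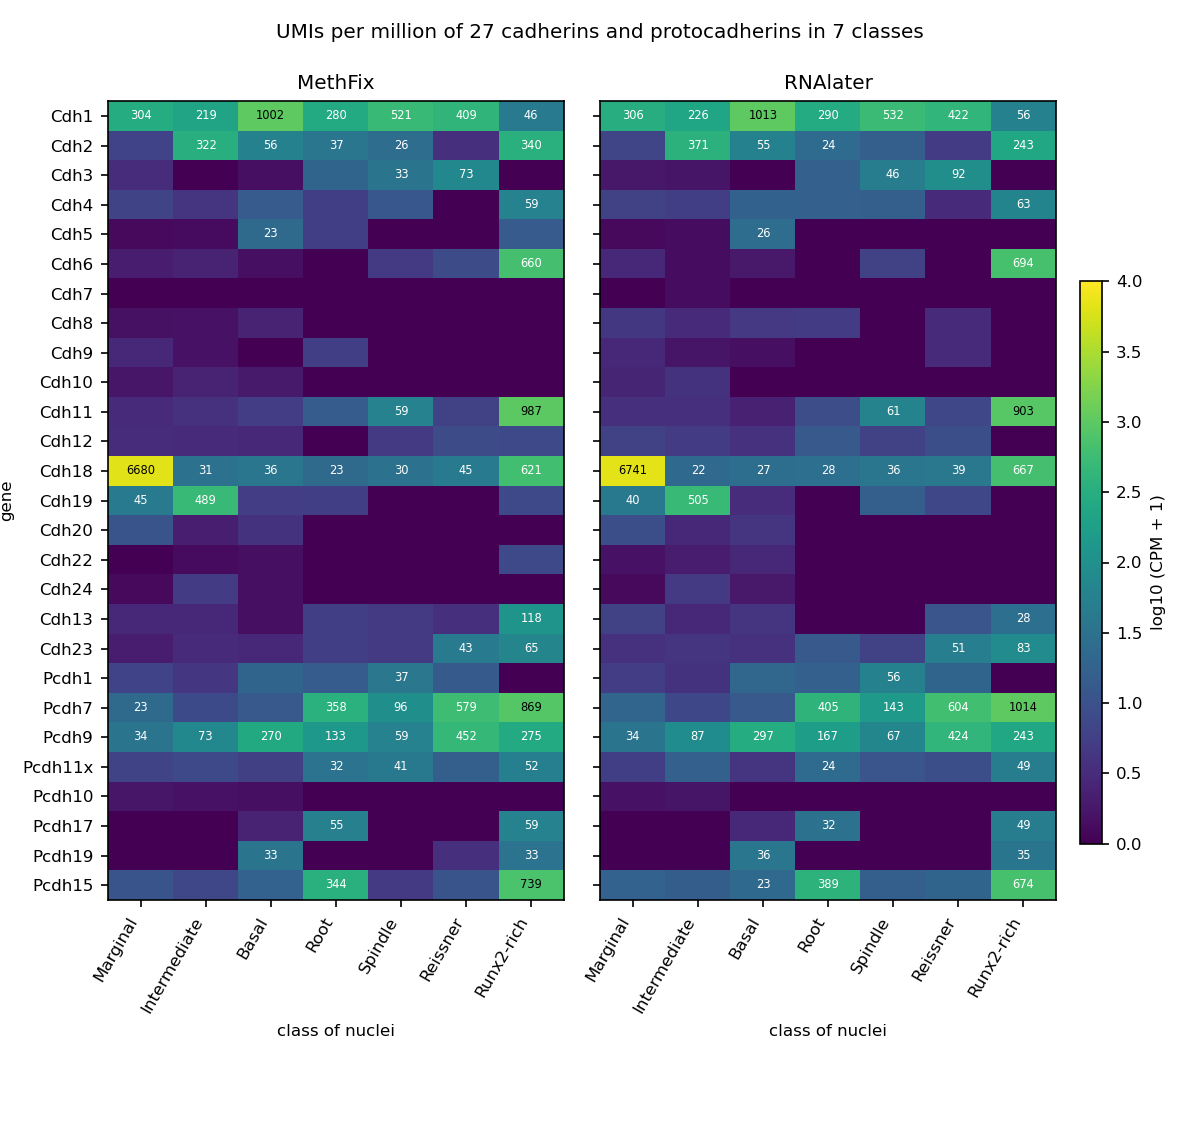
Level of each of the 27 members (rows) in the 7 classes (columns), MethFix on the left and RNAlater on the right, as log10 of CPM plus 1, with the CPM printed where it is at least 20. The brightest cell in both libraries is Cdh18 in marginal nuclei, and the Runx2-rich column has 14 members at or above 20 CPM in each library. That class has few UMIs, so its floor alone came to 19.6 and 20.8 CPM, against 0.758 and 0.811 CPM in marginal nuclei. Above the floor of its class, Runx2-rich nuclei had 14 members in each library. Marginal, intermediate and basal nuclei had between 16 and 19, and root, spindle and Reissner nuclei between 7 and 11.

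Among the type I cadherins, Cdh1 (E-cadherin, chr8:106603351-106670246), the adherens junction protein of epithelia, was found in 6 of the 7 classes at over 200 CPM. It stood at 1002 CPM (959.6 to 1046) in MethFix basal nuclei and 1013 (972 to 1056) in RNAlater basal nuclei. Spindle nuclei followed with 521 and 532 CPM, Reissner nuclei with 409 and 422, marginal nuclei with 304 and 306, root nuclei with 279.9 and 289.8, and intermediate nuclei with 219 and 226. Runx2-rich nuclei were far below, with 7 UMIs (45.8 CPM) and 8 UMIs (55.6 CPM). The basal level was 1.92 times the spindle level in MethFix (1.62 to 2.30) and 1.90 times in RNAlater (1.56 to 2.34). Neighbours further down were close. Spindle over Reissner was 1.27 (1.01 to 1.61) and 1.26 (0.988 to 1.61), and marginal over root 1.09 (0.840 to 1.43) and 1.06 (0.834 to 1.36), so the counts did not separate marginal from root nuclei. Of the basal nuclei, 78.1% and 83.7% had at least 1 Cdh1 UMI, and with each nucleus thinned to 1000 UMIs 57.0% and 57.6%, against 17.1% and 17.6% of intermediate nuclei.

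The Cdh1 level also differed between clusters of 1 class, and these clusters were compared after their values had been seen. Among intermediate nuclei, the cluster led by Opcml had 295 CPM in MethFix and 303 in RNAlater, and the cluster led by RP23-243D10.3 had 130 and 145 CPM, a ratio of 2.28 (1.89 to 2.76) and 2.08 (1.74 to 2.50). For Cdh19, which led the members in both clusters by UMIs, the same ratio was 1.02 (0.912 to 1.14) and 1.10 (0.980 to 1.23). Among basal nuclei, the cluster led by Scd1 stood 1.42 times (1.27 to 1.59) and 1.50 times (1.34 to 1.68) above the cluster led by Sorcs3.

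Cdh2 (N-cadherin), the adherens junction protein of neural and mesenchymal cells, had its highest well-counted level in intermediate nuclei. There it stood at 322 CPM (303 to 341) in MethFix and 371 CPM (349 to 394) in RNAlater. The Runx2-rich class was at 339.9 CPM (254 to 446) and 243 CPM (169 to 338), from 52 and 35 UMIs, so the order of these classes turned between the libraries. Runx2-rich over intermediate was 1.06 (0.785 to 1.40) in MethFix, and intermediate over Runx2-rich 1.53 (1.09 to 2.20) in RNAlater. Basal nuclei were at 56.4 and 55.4 CPM, and marginal nuclei at 5.30 and 5.95 CPM, a ratio of intermediate to marginal of 60.6 (39.5 to 98.4) in MethFix and 62.4 in RNAlater. Thus basal and marginal nuclei held mainly Cdh1 among the type I genes, while intermediate nuclei held both.

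The other type I members were sparse and fall outside the rule for genes described with full values, so they are named after their values were seen. Cdh3 (P-cadherin), whose gene lies 46 kb from Cdh1 on chromosome 8, was highest in Reissner nuclei, with 29 UMIs (73.3 CPM, 49.1 to 105) and 45 UMIs (92.1 CPM, 67.2 to 123). Spindle nuclei had 33.3 and 46.1 CPM from 9 UMIs each, of which 5 and 6 came from 1 nucleus, and the Runx2-rich class had 0 UMIs. Cdh4 (R-cadherin) had 73 and 86 UMIs over the 7 classes. Its highest level was in Runx2-rich nuclei, from only 9 of these UMIs in each library, 5 of them from 1 nucleus.

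Among the type II cadherins, Cdh18 (chr15:22549022-23474418), known mainly from neurons, was the gene of the set with the most UMIs. Marginal nuclei stood at 6679.6 CPM (6599 to 6761) in MethFix and 6741 CPM (6658 to 6825) in RNAlater. A Cdh18 UMI was found in 837 of 842 marginal nuclei (99.4%) and 625 of 631 (99.0%), and after thinning to 1000 UMIs in 97.9% and 97.0%, with up to 121 and 133 UMIs in 1 nucleus. Of all UMIs of the 27 members in marginal nuclei, 93.5% in each library were Cdh18, without correction for gene length. In intermediate, basal, root, spindle and Reissner nuclei the level was at or below 45.5 CPM, a similar low level in 5 different cell types. Between 6.93% and 12.3% of the nuclei of a class had a Cdh18 UMI there, at median depths that in intermediate nuclei, 4028.5 and 5445.5 UMIs, were not far below the 4917 and 6081 UMIs of marginal nuclei. These shares are not read as expression, and the part of free RNA in them was not tested. The ratio of marginal to intermediate nuclei was 217 (179 to 266) and 306 (239 to 398).

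Runx2-rich nuclei were above that low level for Cdh18, with 621 CPM (502 to 759) from 95 UMIs and 667 CPM (540.0 to 814) from 96 UMIs. Only part of the class carried it, 25 of 72 and 22 of 52 nuclei. The marginal level was 10.8 times (8.80 to 13.3) and 10.1 times (8.28 to 12.5) that of the Runx2-rich class. This ratio changed with the setting, and the cause was not tested. As a log2 ratio averaged over the libraries it was 3.38, and it rose to 6.49 when no doublets were removed and to 4.70 at a mitochondrial limit of 5%. Within the marginal cells, the cluster led by Gm38048 was 1.19 times (1.16 to 1.22) and 1.21 times (1.18 to 1.24) above the cluster led by Gm30382. An unnamed cluster with cilia genes such as Dnah12 and Dnah5 among its leading genes and with marginal markers had 4832 and 5439 CPM.

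Cdh19 (chr1:110888326-110977584), a cadherin known from neural crest derivatives and Schwann cell precursors, was restricted to intermediate cells among the 7 classes, cells which are themselves of neural crest origin. Its level there was 489 CPM (466 to 513) in MethFix and 505 CPM (479 to 531) in RNAlater, and 71.4% and 85.1% of the nuclei had a UMI, or 34.3% and 38.4% when thinned. Marginal nuclei came next with 44.7 and 40.3 CPM, a ratio of 10.9 (9.36 to 12.8) and 12.5 (10.6 to 14.9). Basal nuclei had 9 and 5 UMIs, and root, spindle, Reissner and Runx2-rich nuclei between 0 and 3 UMIs each. The gene next to Cdh19, Cdh7, lies 748 kb away with no protein-coding gene between them, and had 0 UMIs in the 7 classes of MethFix and 1 in those of RNAlater. Outside the 7 classes, the 5 Schwann nuclei of MethFix had 4 UMIs (341 CPM, 93.0 to 874), a level whose interval holds that of intermediate nuclei, and the 4 of RNAlater had 0 UMIs (upper limit 280.6 CPM). Over MethFix barcodes absent from the RNAlater matrix, Cdh19 stood at 363 CPM in intermediate nuclei and 45.0 CPM in marginal nuclei, and it no longer met the rule, which 2 members and 0.877% of all features then met. Only 11 Reissner nuclei were left there, with 0 Cdh19 UMIs of 16360, so their floor of 3 UMIs came to 183 CPM. In the annotation 2 other gene models overlap Cdh19 on the same strand, so its count is uncertain, as are those of Cdh18 and Pcdh15 with 2 each.

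Cdh11 (chr8:102632095-102785642), the cadherin of osteoblasts and other mesenchymal cells, was restricted to the Runx2-rich class. There it stood at 987 CPM (836 to 1158) and 903 CPM (754 to 1072), in 46 of 72 and 35 of 52 nuclei. Spindle nuclei were next with 59.2 and 61.4 CPM from 16 and 12 UMIs, a ratio of 16.7 (9.95 to 29.9) and 14.7 (8.13 to 29.2). The spindle level itself was 13.9 times (5.77 to 35.6) and 45.4 times (12.3 to 251) that of basal nuclei, from 10 of 101 and 5 of 57 nuclei. Marginal and intermediate nuclei were between 2.02 and 2.66 CPM. In the annotation 4 other gene models overlap Cdh11 on the same strand, so reads of these could be shared.

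Cdh6 (chr15:13028701-13173675), known from kidney and neural development, stood at 660.2 CPM (538 to 802) and 694 CPM (565 to 845) in Runx2-rich nuclei, from 101 and 100 UMIs. Every other class of the 7 was at or below 7.58 CPM, and root nuclei had 0 UMIs. The highest level of Cdh6 lay outside the named classes. A cluster of 45 and 41 nuclei led by Kcnk2, Tenm2, Cdh6 itself, Dcc and Robo2, which the markers did not name, had 2462 CPM (2188 to 2761) and 2386 CPM (2129 to 2665), and 80% and 78.0% of its nuclei had a UMI. That is 3.73 times (2.96 to 4.72) and 3.44 times (2.73 to 4.35) the Runx2-rich level. The same cluster had 563 and 562 CPM of Cdh11, and Runx2-rich nuclei stood 1.75 times (1.31 to 2.37) and 1.61 times (1.20 to 2.17) above it. With this cluster added as a class, an alternative chosen after seeing the data, Cdh11 and Cdh6 were no longer restricted and Cdh13 and Pcdh19 became so, which left the count at 4, with 2.51% of all features restricted. Cdh6 also lost the call without doublet removal, with a log2 ratio of Runx2-rich to spindle of 2.78 in place of 5.70.

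Inside the Runx2-rich class, pairs of members differed in how often they lay in the same nuclei. In MethFix, 26 of the 72 nuclei had a Cdh6 UMI and 25 a Cdh18 UMI, and 20 had both, where the product of the shares gives 9.03. In RNAlater, 21 of the 52 had Cdh6 and 22 Cdh18, and 16 had both, against 8.88. Cdh6 and Cdh2 shared 2 of 72 nuclei and 1 of 52, against products of 7.22 and 4.44. Cdh11 and Cdh2 shared 16 nuclei and 9, against 12.8 and 7.40. In the unnamed cluster led by Kcnk2 and Tenm2, Cdh6 and Cdh18 were both widespread, with 32 of 45 and 28 of 41 nuclei holding both, and Cdh18 stood at 1361 and 1223 CPM. So the nuclei of the Runx2-rich class with Cdh6 largely also held Cdh18, and few of them Cdh2. These pairs were looked at after their values had been seen, and the counts are given as a description.

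**Figure D2:**
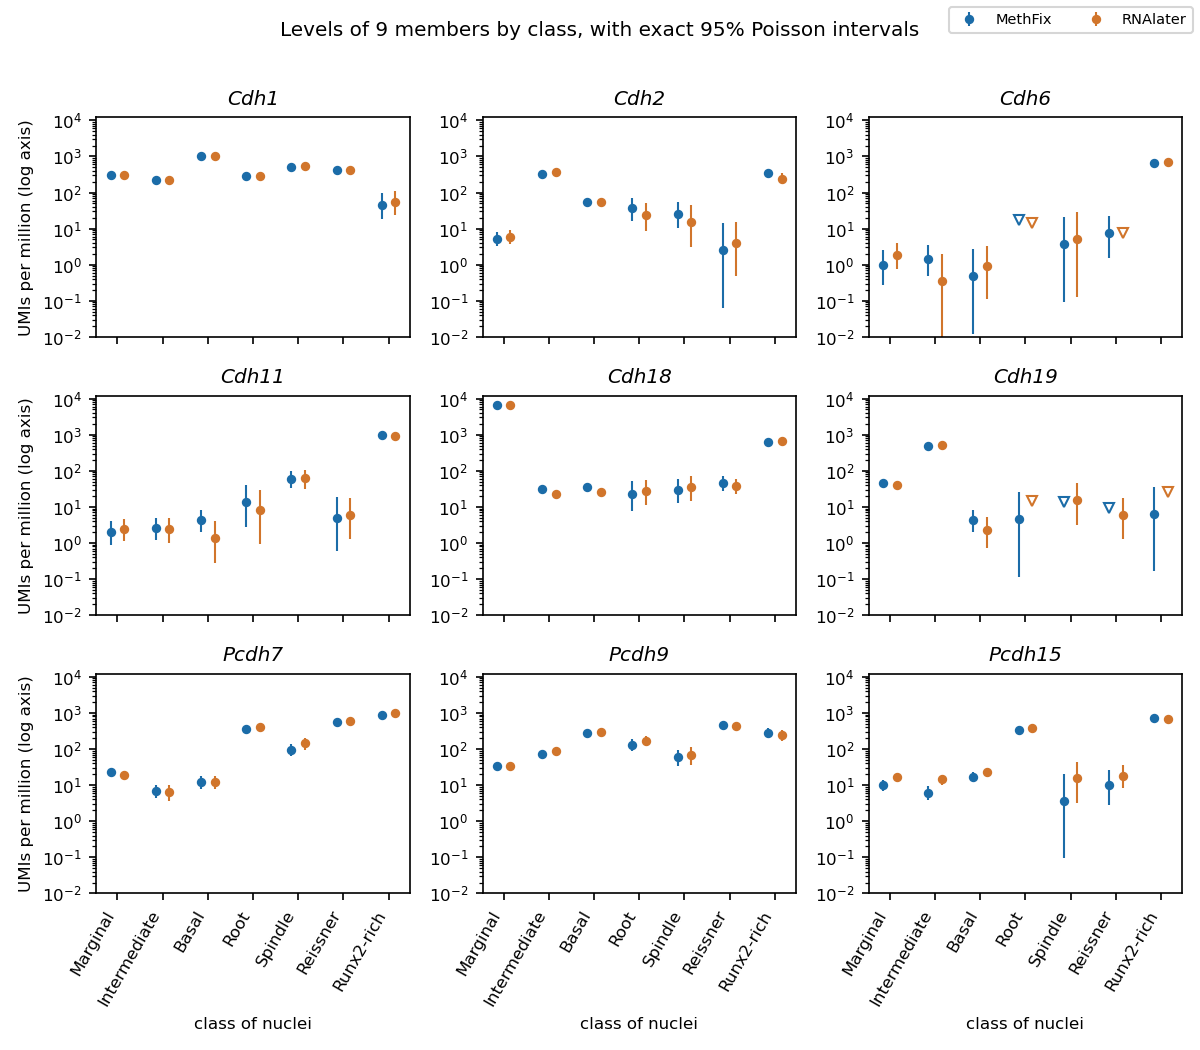
Level in CPM on a log axis of the 9 members described with full values, in the 7 classes, with MethFix in blue, RNAlater in orange and bars for exact 95% Poisson intervals. An open triangle marks the upper limit where a class had 0 UMIs, and a bar that reaches the lower edge of a panel goes on below it. Cdh18, Cdh19, Cdh11 and Cdh6 each have 1 class far above the rest, whereas Cdh1 and Pcdh9 extend over most classes.

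The remaining 9 type II members had few UMIs in the 7 classes and were named after their values were seen. Cdh5 (VE-cadherin), the endothelial cadherin, had 48 and 57 UMIs in basal nuclei (22.7 and 25.7 CPM, 42 and 47 nuclei) and at most 2 UMIs in any other of the 7 classes, while 10 and 6 endothelial nuclei gave 3 UMIs each (205 and 227 CPM). Its ratio of basal to Runx2-rich nuclei rests on 2 and 0 Runx2-rich UMIs and turned with the setting. Cdh24 had 14 and 11 UMIs in intermediate nuclei. Cdh20 had 40 and 30 UMIs in marginal nuclei (10.1 and 8.11 CPM). Cdh7, Cdh8, Cdh9, Cdh10, Cdh12 and Cdh22 stayed below 12 CPM in each of the 7 classes.

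Cdh9 and Cdh12 show where such UMIs lay. Of the 142 Cdh9 UMIs in MethFix and 154 in RNAlater, 88.7% and 92.2% were in barcodes over the limit of 8000 UMIs, and of the Cdh12 UMIs 76.5% and 74.2%, against 29.0% and 25.0% of the UMIs of all features. A single barcode, the same in both matrices, held 56 of the Cdh9 UMIs in MethFix and 66 in RNAlater, and another held 65 and 91 of the 136 and 198 Cdh12 UMIs, with 40 and 60 UMIs of Pcdh15 and 31 and 36 of Cdh6 beside them. Pcdh10 also had its largest count in 1 such barcode, 21 UMIs in each matrix, together with 234 and 273 UMIs of Pcdh9. That barcode held 111 and 130 UMIs of neuron markers, from 2 of the 5 on the list. Of spindle markers it held 116 and 128 UMIs, from 2 of the 6. With the limit of 8000 UMIs left out, 10 members were called restricted, the 4 named and Cdh4, Cdh8, Cdh10, Cdh12, Cdh13 and Cdh20. Over all features the share restricted was then 4.62%.

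**Figure D3:**
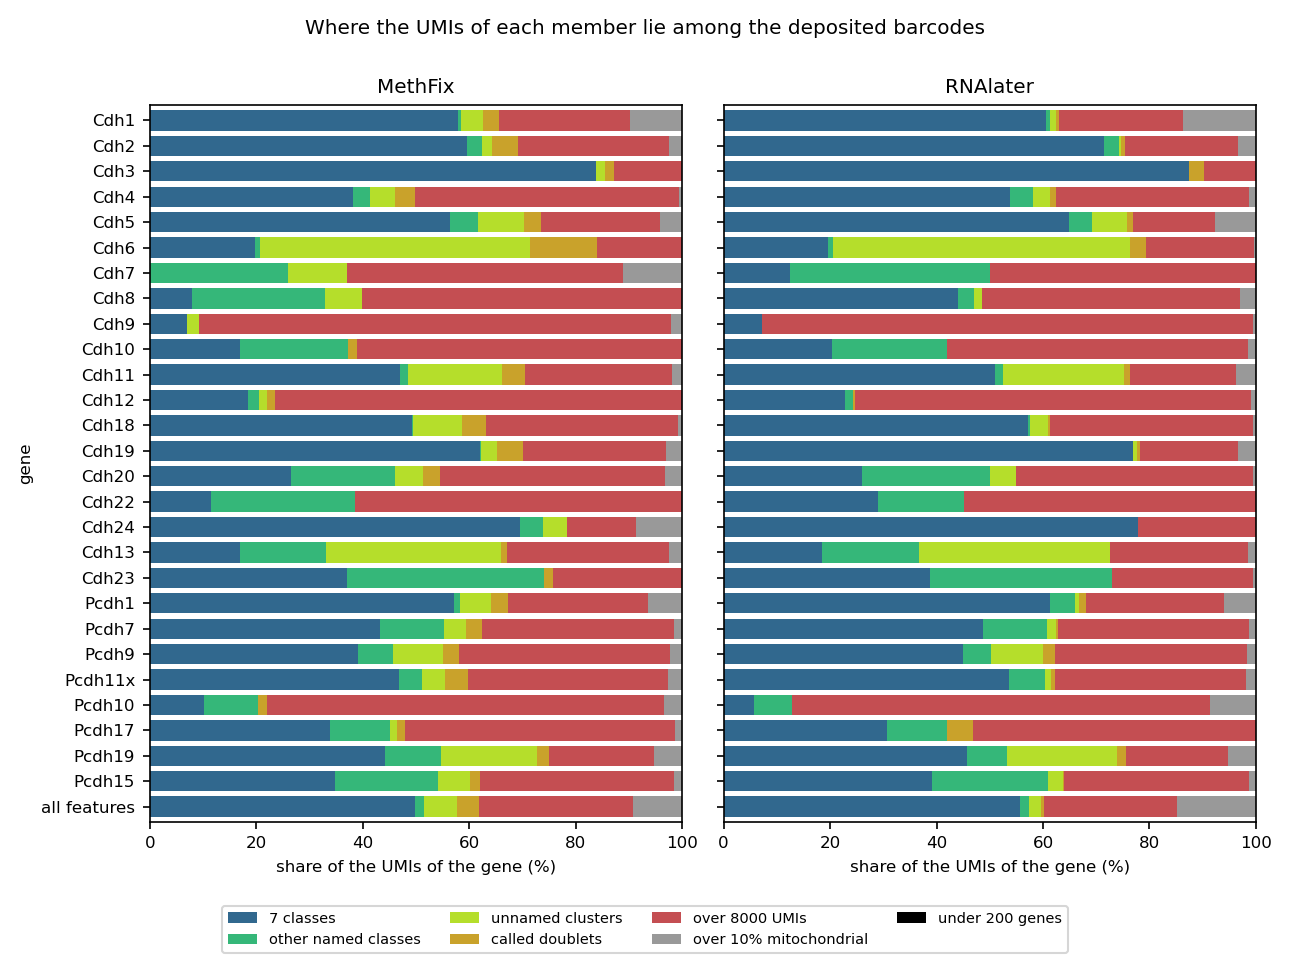
Share of the UMIs of each member, and of all features in the lowest bar, by the kind of barcode that held them, in percent, for MethFix and RNAlater. Cdh9, Cdh12 and Pcdh10 are mostly red, in barcodes over 8000 UMIs, while Cdh6 is mostly in unnamed clusters.

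The tip-link genes Cdh23 and Pcdh15 were checked in the few nuclei of the sensory epithelium first. The 9 hair cell nuclei of each library had a Cdh23 UMI in 9 of 9 cases, at 1554 CPM (1115 to 2108) and 1661 CPM (1251 to 2161), and Pcdh15 in 8 and 9 of 9, at 2122 CPM (1603 to 2756) and 2446 CPM (1942 to 3039.5). In the 7 classes Cdh23 was low. Reissner nuclei had 42.9 and 51.2 CPM from 17 and 25 UMIs in 9 and 11 nuclei. Runx2-rich nuclei had 65.4 and 83.3 CPM, but 1 nucleus held 8 of the 10 UMIs in MethFix and 9 of the 12 in RNAlater. The other 5 classes were at or below 11.9 CPM.

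Pcdh15 (chr10:73099342-74649737), unlike Cdh23, was also well counted outside hair cells. Runx2-rich nuclei stood at 739 CPM (609 to 888) and 674 CPM (546 to 822), in 21 of 72 and 17 of 52 nuclei. Root nuclei stood at 344 CPM (271 to 431) and 389 CPM (316 to 474), in 40.8% and 40.6% of nuclei, and 29.2% in each library when thinned. The ratio of Runx2-rich to root nuclei was 2.15 (1.59 to 2.91) and 1.73 (1.29 to 2.32), and without doublet removal the log2 ratio turned from 0.95 to −0.69. The other 5 classes were between 3.70 and 22.5 CPM, and in basal nuclei 1 nucleus held 16 of 36 and 22 of 50 UMIs. Root over basal was 20.2 (13.4 to 30.9) and 17.3 (12.2 to 24.8).

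The root level came from 1 of the clusters of that class. The cluster led by Prss36, Srgap1 and Epyc, with 37 and 35 nuclei, had 658 CPM of Pcdh15 from 66 UMIs and 794 CPM from 87 UMIs. The cluster led by Rspo2, Lgr5 and Slc26a4, with 34 nuclei in each library, had 76.5 and 77.3 CPM, a log2 ratio of 3.11 (2.09 to 4.30) and 3.36 (2.45 to 4.41). Pcdh9 followed the same split, with 27 and 40 UMIs against 2 and 2, a ratio of 15.8 (3.98 to 137) and 26.0 (6.73 to 222). Pcdh7 differed less, at 1.24 (0.772 to 1.98) and 1.52 (1.01 to 2.29), and Cdh1 was at 0.932 (0.541 to 1.59) and 1.07 (0.654 to 1.74). The Prss36 cluster held 2463 and 2436 CPM of the 6 root markers, below the 7683 and 7534 CPM of the Rspo2 cluster. Slc26a4 (658 and 730 against 4462 and 4399 CPM), Lgr5, Kcnj16 and Rspo2 were lower in the Prss36 cluster. Epyc (1316 and 1159 against 382 and 365 CPM) and Sall2 (59.8 and 82.1 CPM against 0) were higher there. Of the 5 supporting cell markers the Prss36 cluster held 2922 and 2801 CPM. Ceacam16 gave most of this, 2713 and 2573 CPM. Otoa stood at 199 and 210 CPM there, against 0 in the Rspo2 cluster. Fgfr3 had 1 and 2 UMIs, and Tecta and Tectb were at 0. In the Rspo2 cluster the supporting markers summed to 161 and 189.7 CPM and the 6 spindle markers to 4479 and 4413 CPM. Of that spindle sum, Slc26a4, which is also one of the 6 root markers, gave 4462 and 4399 CPM. Anxa1, Dpp10, Kcnq5, Il1rapl2 and Dkk2 had at most 1 UMI each per library there. The part of supporting and spindle cells in the root values was not tested. The supporting nuclei themselves, 14 and 13, had 1395 and 1405 CPM of Pcdh15. With the Prss36 cluster left out of root, Pcdh15 met the rule as restricted to the Runx2-rich class, with a log2 ratio to root of 3.20, while 3.19% of all features were restricted.

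**Figure D4:**
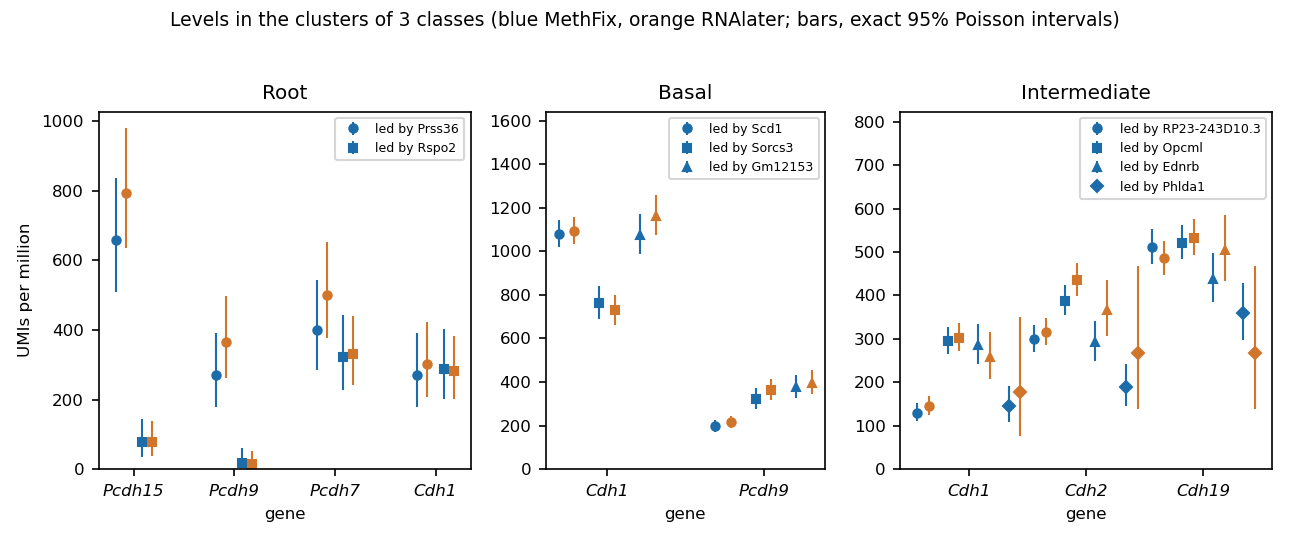
Levels in CPM of selected members in the separate clusters of root, basal and intermediate nuclei, with MethFix in blue, RNAlater in orange, a marker shape for each cluster and exact 95% Poisson intervals. Pcdh15 and Pcdh9 split the root clusters, at 658 and 794 against 76.5 and 77.3 CPM for Pcdh15, while Cdh1 does not.

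Cdh13 (T-cadherin), which has no cytoplasmic part and is known from blood vessels, had 18 UMIs in Runx2-rich nuclei in MethFix (118 CPM) and 4 in RNAlater (27.8 CPM), 8 of the 18 from 1 nucleus. The remaining classes had at most 18 UMIs and 10.2 CPM. In MethFix alone, and with both libraries pooled, it met the rule for a restricted gene, which 3.69% and 4.18% of all features then met.

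The δ1 protocadherins, which have a long cytoplasmic tail, had 4 of 4 members above the minimum of UMIs. Pcdh7 (chr5:57717967-58133230) was high in Runx2-rich nuclei, at 869 CPM (728 to 1030.3) and 1014 CPM (856 to 1192). In that class 1 nucleus held 47 of 133 UMIs in MethFix and 59 of 146 in RNAlater. Reissner nuclei stood at 579 CPM (506 to 659) and 604 CPM (537 to 677), spread over 83 of 155 and 90 of 154 nuclei. Root nuclei followed with 358 and 405 CPM and spindle nuclei with 96.1 and 143 CPM, while marginal, intermediate and basal nuclei were between 6.29 and 22.7 CPM. Reissner over root was 1.62 (1.24 to 2.12) and 1.49 (1.19 to 1.89), and root over marginal 15.7 (11.5 to 21.6) and 21.1 (15.4 to 29.0). So Pcdh7 was high in Reissner and root nuclei and low in all 3 main layers of the stria. Runx2-rich over Reissner was 1.50 (1.20 to 1.87) and 1.68 (1.37 to 2.05), which turned when the limit of 8000 UMIs was left out, at a log2 ratio of −0.25 in place of 0.67. As 14 gene models overlap Pcdh7 on its strand, its count is uncertain.

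Pcdh9 (chr14:93013410-93890679), known from neurons, was spread over the classes. Reissner nuclei had 452 CPM (388 to 524) and 424 CPM (368 to 485), basal nuclei 270.1 CPM (248 to 293) and 297 CPM (275 to 321), and Runx2-rich nuclei 275 and 243 CPM. Reissner over basal was 1.67 (1.41 to 1.98) and 1.42 (1.21 to 1.67). The basal and Runx2-rich levels were not told apart, with Runx2-rich over basal at 1.02 (0.724 to 1.39) in MethFix and basal over Runx2-rich at 1.22 (0.871 to 1.77) in RNAlater. Basal over intermediate nuclei was 3.72 (3.19 to 4.33) and 3.42 (2.95 to 3.97). Among basal nuclei the cluster led by Sorcs3 stood 1.63 times (1.33 to 2.01) and 1.69 times (1.40 to 2.05) above the cluster led by Scd1, the opposite order to Cdh1.

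Pcdh1 and Pcdh11x, named after their values were seen, were low in all 7 classes. Pcdh1 had its highest level in spindle nuclei, at 37.0 and 56.3 CPM from 10 and 11 UMIs, against 18.5 and 19.8 CPM in basal nuclei. Spindle over basal was 2.00 (0.891 to 4.08) and 2.84 (1.32 to 5.59). Pcdh11x was between 3.15 and 52.3 CPM, and its intermediate level of 6.50 CPM in MethFix and 15.7 CPM in RNAlater was the largest difference between the libraries among the 42 pairs, a log2 ratio of 1.28.

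The δ2 protocadherins had 3 of 5 members above the minimum, again named after their values were seen. Pcdh19 had 70 and 81 UMIs in basal nuclei (33.2 and 36.5 CPM), 5 UMIs in Runx2-rich nuclei in each library (32.7 and 34.7 CPM), and 0 in marginal, intermediate, root and spindle nuclei. Pcdh17 had 12 and 8 UMIs in root nuclei and 9 and 7 in Runx2-rich nuclei, and 0 in marginal, intermediate, spindle and Reissner nuclei. Pcdh10 had at most 3 UMIs in any of the 7 classes. Below the minimum, Pcdh20 had 16 UMIs in each matrix, the nearest to it, and Pcdh18 had 13 and 7. Just above it were Cdh24 with 23 and 18 UMIs, Cdh22 with 26 and 31 and Cdh7 with 27 and 8.

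None of the 59 clustered protocadherins, the α, β and γ genes by which neurons tell themselves from others, reached the minimum. They had 1 UMI in all in each matrix. The low total includes any loss from the way reads of genes with shared last exons are counted, which was not tested.

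Across the classes, the members together made up 7141 CPM in MethFix and 7213 CPM in RNAlater of marginal nuclei, 4955 and 4799 CPM of Runx2-rich nuclei, and between 931.9 and 1717 CPM in the other 5. In Runx2-rich nuclei no member gave more than 21.1% of these UMIs, while Cdh1 gave 66.4% and 65.2% in basal nuclei, 56.0% and 51.7% in spindle nuclei, and Cdh19 41.5% and 39.4% in intermediate nuclei.

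Beside the members, 3 lists of related genes were counted. Unlike the members, these genes were not held out of the genes used for clustering, so their restriction is not independent of the classes. Over all features, 3.25% were restricted. Of the catenins and their partners, which link classical cadherins to actin, 10 had at least 20 UMIs and 1 was restricted, Ctnna2 to root nuclei (142 and 159 CPM). Ctnnb1 (β-catenin) was at 399 and 414 CPM in intermediate and at 401 and 395 CPM in basal nuclei, and at 73.5 and 72.4 CPM in marginal nuclei, where Cdh18 was high. Jup (plakoglobin) led in basal nuclei with 137 and 138 CPM, as Cdh1 did. Of the other genes of the cadherin superfamily, 15 had at least 20 UMIs and 5 were restricted. These were Fat3 (849.8 and 854 CPM) and Dchs2 (85.0 and 83.3 CPM) in Runx2-rich nuclei, Clstn2 (488 and 471 CPM) in spindle nuclei, Clstn3 (111 and 113 CPM) in Reissner nuclei, and Fat2 (936 and 952 CPM) in basal nuclei, which is itself one of the basal markers. Fat3 is among the leading genes of the Runx2-rich cluster. Of 6 tip-link partners with at least 20 UMIs, 0 were restricted.

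Outside the 7 classes, several members were highest in cell types with few nuclei. Cdh2 had 446 and 463 CPM in supporting nuclei. Pcdh7 had 1667 and 1721 CPM in hair cell nuclei, in 8 of 9 in each library, and 929.9 and 978 CPM in supporting nuclei, in 8 of 14 and 10 of 13. Pcdh9 had 2442 CPM (2085 to 2843) in 40 neuron nuclei of MethFix and 1438 CPM (1177 to 1739) in 42 of RNAlater, and 1697 and 2112 CPM in the cluster led by Kcnk2 and Tenm2, where 86.7% and 82.9% of nuclei had a UMI. Cdh18 in hair cell nuclei, 1175 and 1600.1 CPM, came from 1 of the 9 nuclei. The supporting nuclei lacked Tecta and Tectb UMIs, and in MethFix also Otoa UMIs. Their name rests on the other markers of that list, 2 of 5 in MethFix and 3 of 5 in RNAlater. Neuron nuclei lacked Tubb3 UMIs in both libraries, and in MethFix hair cell nuclei lacked Chrna9 and endothelial nuclei Egfl7 UMIs.

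**Figure D5:**
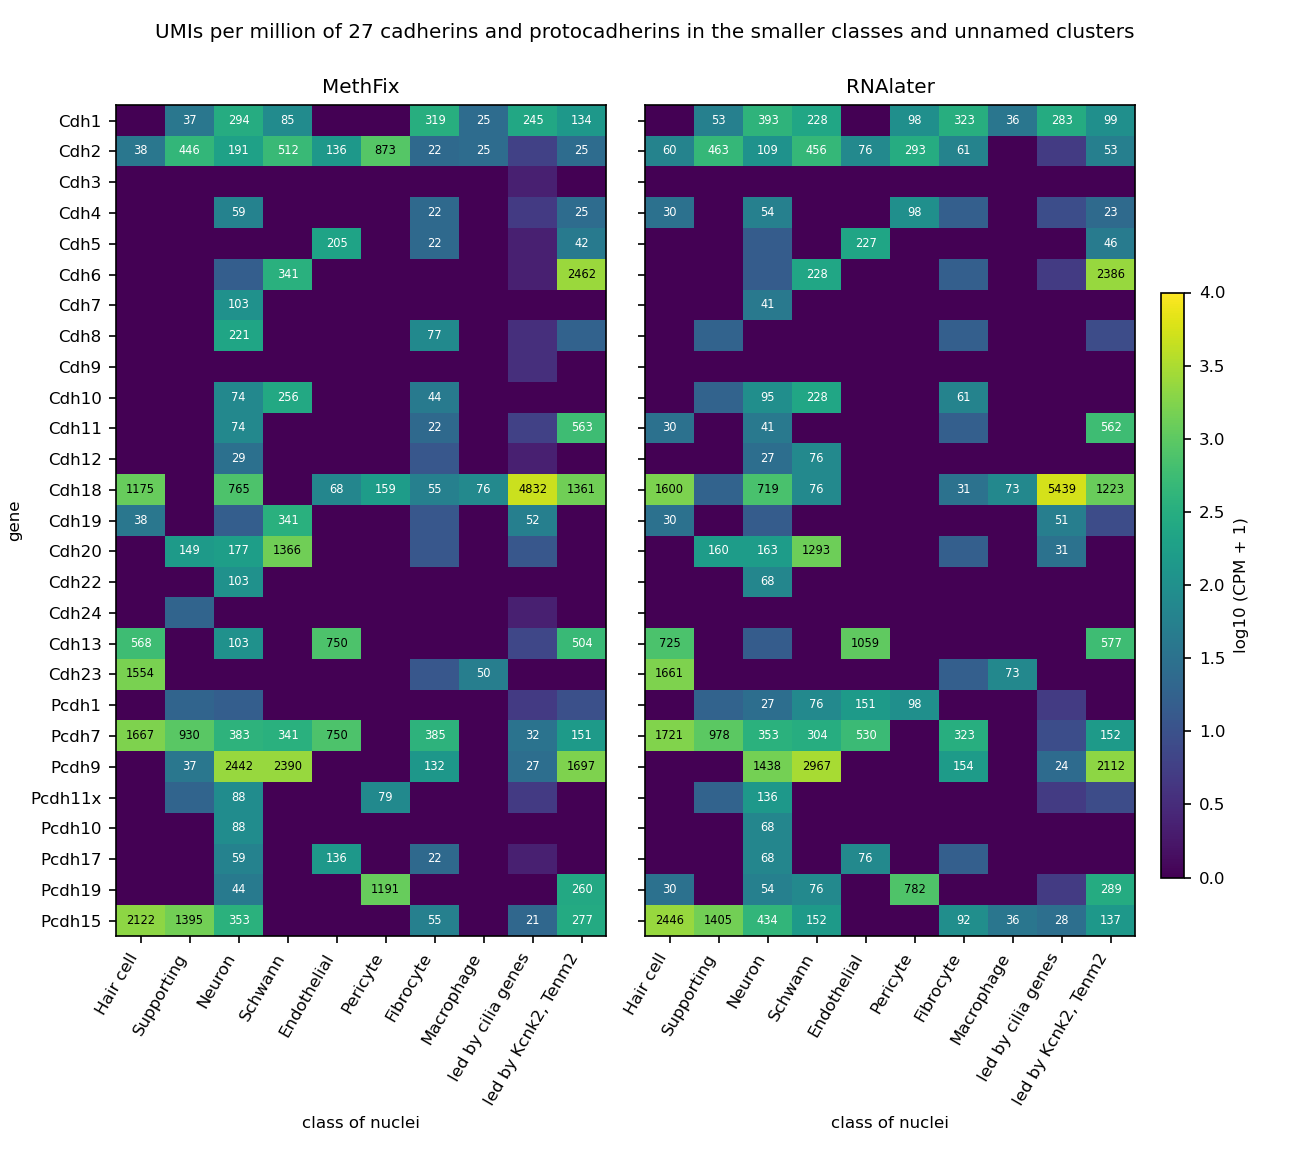
Level of the 27 members in the classes with few nuclei and in 2 unnamed clusters, as log10 of CPM plus 1, with the CPM printed where it is at least 20. Pcdh15, Cdh23 and Pcdh7 are bright in hair cells, Cdh20 in Schwann cells and Cdh6 and Pcdh9 in the cluster led by Kcnk2 and Tenm2. With 4 to 42 nuclei in each named class, single nuclei can set a value.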

How the data were processed

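Each library was a 10x Genomics 3′ single-nucleus RNA-seq preparation. The authors aligned the reads to mm10 (GRCm38) with Cell Ranger 3.0.1 and deposited raw UMI counts per gene and barcode, not normalized. Whether intronic reads were counted is not given in the sources used here. The submitters' notes also name Scanpy 1.4.5.

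From these counts, barcodes with fewer than 200 detected genes, more than 8000 UMIs or over 10% of UMIs from mitochondrial genes were removed, as were genes seen in fewer than 3 nuclei. Scrublet with an expected rate of 0.1 removed 207 barcodes in MethFix (5.76%) and 20 in RNAlater (0.859%). Both libraries were clustered together with scanpy 1.11.5 and leidenalg 0.10.2 on 4000 variable genes without the members, with 30 components, 10 neighbours and resolution 1. The joint clustering and the rule for naming clusters were set after the clusters had been seen. The members and the gene lists were chosen with earlier results of these data known. Members were described with full values when restricted to 1 class or with at least 100 UMIs in 1 of the 7 classes, and cluster, list and sparse-member values outside this rule were picked afterwards. Shares after thinning leave out nuclei below 1000 UMIs, from 2 of 842 marginal to 12 of 72 Runx2-rich nuclei in MethFix. Effective library sizes by TMM came from edgeR 4.0.16 in R 4.3.3 and served as an alternative only. Intervals were computed with scipy 1.17.1, and 28 settings were tried. Gene coordinates are from the GENCODE annotation on GRCm38 and promoter windows from RefSeq on GRCm38.p6.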

Additional observations from a re-analysis of the deposited data

Results flagged for a closer look

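Several members had signal outside the 7 compared classes that lay above the highest level in any of them. In Schwann nuclei, 5 in MethFix and 4 in RNAlater, Cdh20 stood at 1366 and 1293 CPM from 16 and 17 UMIs, against at most 10.1 CPM in the 7 classes. Of these Cdh20 UMIs, 14 of 16 in MethFix and all 17 in RNAlater came from 2 nuclei. Pcdh9 stood at 2389.7 and 2967 CPM in Schwann nuclei, from 28 and 39 UMIs. In neuron nuclei Cdh20 stood at 177 and 163 CPM from 12 UMIs in each library, and in supporting nuclei at 149 and 160 CPM from 8 and 9 UMIs. In hair cell nuclei Cdh23, the tip-link cadherin, stood at 1554 and 1661 CPM in 9 of 9 nuclei.

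Cdh13 stood at 750.1 and 1059 CPM in 10 and 6 endothelial nuclei, with 8 of the 11 UMIs in MethFix and 8 of the 14 in RNAlater from 1 nucleus. In hair cell nuclei it stood at 568 and 725 CPM, all from 1 of the 9 nuclei. In the unnamed cluster led by Kcnk2 and Tenm2 it stood at 504 and 577 CPM, where 1 nucleus held 31 of 60 and 40 of 76 UMIs. Pcdh19 stood at 260.5 and 289 CPM in the same cluster, in 15 nuclei of each library. Its level was higher still in the few pericyte nuclei, at 1191 and 782 CPM from 15 and 8 UMIs. These UMIs lay in 6 of 7 pericyte nuclei in MethFix and 3 of 5 in RNAlater.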

How the results depend on the processing

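Of the counts, 52 values stayed within 1.5 times the reported count and 3 did not. Restricted members numbered 10 without the limit of 8000 UMIs, where 4.62% of all features were restricted, and 2 (without Cdh19 and Cdh6) over MethFix barcodes absent from RNAlater, where 0.877% were. They numbered 4 without MethFix, where 3.78% of all features were restricted, and 5 without RNAlater, where 3.69% were. With each library clustered on its own, a choice made after seeing the data, 4 of the 9 fully described members kept their highest class, since no MethFix cluster was then named Runx2-rich. Of the ratios, 181 values kept their direction and lay within the counting interval of the reported ratio, 16 left it and 17 reversed. That interval is wide for sparse members, so lying within it does not show a kept size. For Cdh20 (marginal over basal), with 6 and 7 basal UMIs, all 14 values lay within it. For well-counted Cdh18 (marginal over Runx2-rich) 7 did and 6 moved, and for Cdh1 (basal over spindle) 13 did and 1 moved. The reversed log2 ratios were, without doublet removal, −0.69 for Pcdh15 (Runx2-rich over root), and without the limit of 8000 UMIs −0.25 for Pcdh7 (Runx2-rich over Reissner) and −0.64 for Pcdh19 (basal over Runx2-rich). For Cdh5 (basal over Runx2-rich) they were −0.71 at the lower and −0.050 at the higher clustering resolution, −0.065 with members among the variable genes, −2.03 over MethFix-only barcodes and −1.03 when thinned. For Cdh2 (intermediate over Runx2-rich) they were −0.023 at the higher resolution, −0.023 with members among the variable genes, −1.46 over MethFix-only barcodes and −0.12 when thinned. Over MethFix-only barcodes Pcdh7 was at −0.57, Cdh23 (Runx2-rich over Reissner) at −1.20, Cdh24 (intermediate over basal) at −1.48 and Pcdh19 at −2.44, and thinned Pcdh19 was at −0.79. The MethFix-only values of Cdh23 and Pcdh19 equalled ratios of the 3-UMI floors. These floors were 79.7 CPM in Runx2-rich, 183 CPM in Reissner and 14.7 CPM in basal nuclei. For Cdh24 the basal count, and for Cdh5 the Runx2-rich count, lay below 3 UMIs in MethFix and was set to the floor. Such values give no order of the classes. The cause of the remaining reversals was not tested. No paired analysis was possible because the 2 libraries share most barcodes and no test between groups was made. The median depth of Runx2-rich nuclei, 1774.5 and 2661 UMIs, was the lowest of the 7 classes.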
